A study of Mus musculus with 18 samples.

Results

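The genes described here are named as translation initiation factors (eIF) or elongation factors (eEF) of the cytosol, or as enzymes that modify the elongation factors. They are the rows of the deposited count table whose gene name starts with Eif or Eef and a digit from 1 to 6. The role groups used below also follow the names, and membership was not checked against the function of each protein (for example Eef1e1 or Eif4enif1). The stress kinases of the Eif2ak family and the eIF4E-binding proteins (6 rows) and 3 pseudogenes were left out. This gave 54 of 14695 genes. Another 4 rows of these families had a blank name in the table (by their identifiers Eif2s2, Eef1d, Eif4g3 and Eif1a) and fell outside the rule. Values for these are given apart.

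The RNA came from primary CD8+ T cells of mouse spleen and lymph node, targeted with CRISPR/Cas9 at Rosa26 (a neutral locus used as the targeting control), at Atf4 or at Cebpg. The cells were then kept for 24 hours with halofuginone or with no treatment, so that the 6 groups were untreated Rosa26, halofuginone-treated Rosa26, and the same pair for the Atf4 knockout and for the Cebpg knockout, with 3 libraries each. Every group thus carried a CRISPR/Cas9 cut, and the controls differed from the knockouts in its place. The labels give no age, sex, strain or halofuginone dose, and leave unsaid whether replicate libraries stem from different animals or cultures. The p-values therefore measure only the spread between these samples, which may be technical.

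To start translation, the GTPase eIF2 carries the initiator methionyl-tRNA to the small ribosomal subunit, and its exchange factor eIF2B reloads it with GTP. eIF3 holds the scanning complex together, the eIF4 factors bind the cap of the mRNA and unwind it, and eIF1, eIF1A, eIF5 and eIF5B govern start codon choice and joining of the large subunit. eEF1 delivers aminoacyl-tRNA to the ribosome and eEF2 moves it along the mRNA. Halofuginone blocks prolyl-tRNA synthetase, and the uncharged tRNA activates the kinase GCN2, which phosphorylates eIF2 so that it traps eIF2B. The mRNA of the transcription factor ATF4 is then translated more, and C/EBPgamma is a partner of ATF4 at many of its target genes.

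Libraries held 14.2 to 20.3 M counts. The summed CD8 T cell markers Cd8a, Cd8b1, Cd3e and Thy1 ran from 2882 to 2987 in untreated and 2652 to 3077 in treated Rosa26 cells, from 3028 to 3095 and 2233 to 2679 in the Atf4 knockout, and from 3033 to 3094 and 2348 to 2518 in the Cebpg knockout, all in CPM (counts per M counts of the library, after TMM scaling). Of the markers of other cells, Cd79a of B cells was at most 0.793 CPM. Zbtb7b and Foxp3, measured from the CD4 T cell list, summed to 8.19 to 9.09 CPM in untreated and 33.6 to 36.3 CPM in treated Rosa26 cells, to 11.8 to 13.9 and 17.0 to 20.4 in the Atf4 knockout, and to 9.74 to 12.4 and 15.4 to 17.4 in the Cebpg knockout. Eomes of the NK list, also a CD8 T cell gene, went from 82.6 to 86.1 CPM to 25.2 to 32.6 in Rosa26, from 46.8 to 55.1 to 16.1 to 17.7 in the Atf4 knockout and from 59.1 to 68.6 to 19.0 to 23.1 in the Cebpg knockout. The part of these cells in the results was not tested, and in bulk RNA fewer cells of a type and less RNA per cell cannot be told apart. Atf4 and Cebpg mRNA remained present in their own knockouts (315 ± 57.3 and 101 ± 6.37 CPM with halofuginone, SD, n = 3), so these counts do not check the genotype. Halofuginone-treated Rosa26 replicate 2, Atf4 knockout replicate 3 and Cebpg knockout replicate 3 stood apart from their groups in some RNAs. They held less of the nuclear RNA Malat1 and of TEC genes (annotated transcripts that await experimental support), and the translation factor genes lay higher in them. By the distance between the counts of pairs of libraries, however, treated Cebpg knockout replicate 2 lay furthest from its group. Its chi-square per degree of freedom was 28.6 against replicate 1 and 20.1 against replicate 3, while replicates 1 and 3 gave 11.8. As the translation factor genes lay higher in the 3 libraries, leaving them out is no independent check of these genes. Counts of calls without these 3 libraries are given below for the drug, for each knockout against Rosa26 and for the interactions. Not every single call is given without them.

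Compared per kilobase of exon, untreated Rosa26 cells held by far the most mRNA of the elongation machinery. Eef1a1, the carrier of aminoacyl-tRNA, led with 3843 ± 155 CPM per kb (SD, n = 3), ahead of the translocase Eef2 with 1297 ± 14.7. Eif5a, which relieves ribosomes that stall at difficult peptide bonds, followed with 889.9 ± 22.7. The helicase Eif4a1 was the highest of the eIF4 group at 373 CPM per kb, and the cap-binding relative Eif4e2 the lowest at 17.9. Eif3h led the eIF3 subunits with 283, and Eif3j2 had the lowest level of all 54 genes with 0.786. Eif1, which keeps the scanning complex open, stood at 176 against 22.7 for the joining factor Eif5b. The eIF2 alpha subunit Eif2s1 (54.8 CPM per kb) and the catalytic subunit of eIF2B, Eif2b5 (52.0), were at near-equal levels, while Eif2s3y (26.1) and Eif2b3 (7.33) were the lowest of their complexes. Of the other carriers of initiator tRNA, Eif2a stood at 19.5 and Eif2d at 9.73. Eef1e1 (24.5), Eif5a2 (6.84) and Eef1akmt4 (3.53) were the lowest of the elongation factors, the eIF5A and eIF6 group, and the modifying enzymes, and Eef1akmt1 (28.3) was the highest of the modifying enzymes.

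The promoters of these genes often held an E box, the sequence CACGTG, which is bound by MYC and related factors. RefSeq windows (GRCm38.p6) of 250 bases before to 50 bases after the annotated start were at hand for 44 of the 54 genes. CACGTG, which reads alike on both strands, was in 13 of 44 (29.5%), against 8.09% of all 27025 genes with a window and 11.7% of the 9635 of them in the count table. The motif TGATGCAA, a core bound by ATF4 with C/EBP partners, was searched on both strands and found in 0 of the 44. It was in 1.03% of all genes and 0.716% of those in the count table. At shares this low, 0 among 44 genes cannot show that the motif is rarer in them. A C at the start followed by at least 4 pyrimidines, as in mRNAs with a terminal oligopyrimidine tract, was found in 2 of 44 (4.55%; Eif2s3x and Eif3f) against 3.01%. These matches describe the letters of the windows and no binding was measured. For the pyrimidine start only a C at the exact annotated start was counted, so a tract at a start some bases away was missed. That count therefore cannot show which of these mRNAs carry such a tract. The stretches below show the E box, in capitals, in 5 genes of the panel or of the largest falls with the drug, 5′ to 3′ on the strand of the gene. Eif4g1 holds a further CACGTG just after its start, not shown. The panel genes Eef2k (at -31) and Eif5a also hold CACGTG and are not shown. Neither passed the test with the drug in Rosa26, so the genes shown are no fair sample of those with an E box. In Eif4e (chr3:138527020-138527065 and chr3:138527184-138527229, plus strand) the E boxes begin at positions -228 and -64 from the start, and in Eif4g1 (chr16:20672653-20672698, plus strand) at -54. In Eif4h (chr5:134639480-134639525, minus strand) it begins at -96, in Eif4a1 (chr11:69672587-69672632, minus strand) at -189 and in Eef2 (chr10:81176568-81176613, plus strand) at -43.
Eif4e, distal: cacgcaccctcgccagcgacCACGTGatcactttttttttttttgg
Eif4e, proximal: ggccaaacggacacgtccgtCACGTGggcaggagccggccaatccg
Eif4g1: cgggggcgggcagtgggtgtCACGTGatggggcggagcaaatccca
Eif4h: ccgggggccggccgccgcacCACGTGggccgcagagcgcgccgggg
Eif4a1: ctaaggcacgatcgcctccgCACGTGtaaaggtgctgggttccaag
Eef2: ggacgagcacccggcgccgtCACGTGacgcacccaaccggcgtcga
Of the genes that fell with halofuginone in all 3 genotypes, 5 of the 21 with a window held CACGTG (23.8%), and of the others 8 of 23 (34.8%). Among the genes shown, Eef2 did not pass the test in any comparison, and Eif4g1 fell in every drug comparison. Whether the E box bears on the response to the drug was not tested.

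Halofuginone lowered the mRNA of most initiation factors in Rosa26 cells, while none of the 5 elongation factor genes within the rule was called lower. Eef1d, an elongation factor gene outside the rule because its name was blank, did fall, as given below. By edgeR's quasi-likelihood test (Benjamini-Hochberg adjusted p under 0.05 over all 14695 genes), 29 of 54 genes fell and 7 rose. Over all genes 24.1% fell, 23.6% rose and 47.7% passed in either direction. The median log2 fold change was -0.28 over the 54 genes and 0.02 over all genes. In 30 of the 54 every treated library lay below every untreated library (27.9% of all genes), and in 8 every treated library lay above (27.2%). All log2 fold changes below are levels with the drug minus levels without it, ± the standard error of the fit.

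**Figure D1:**
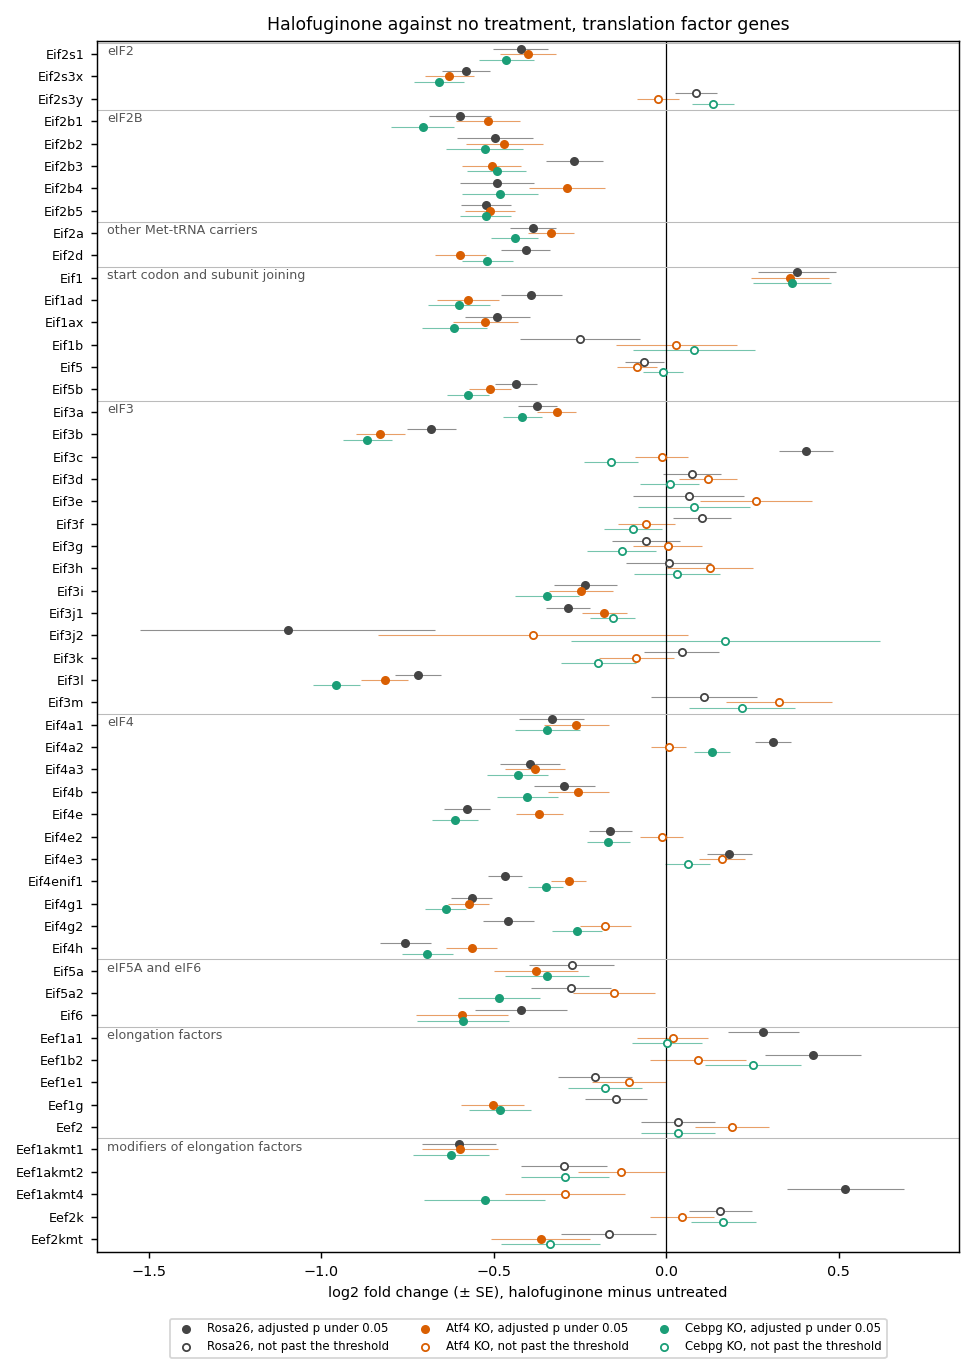
Log2 fold change with halofuginone for the 54 genes, ordered by role (x axis, log2, bars are the standard error of the fit; filled points have an adjusted p under 0.05). All 5 eIF2B genes lie left of 0 in all 3 genotypes, and the eIF3 genes spread over both sides, from Eif3b and Eif3l on the left to Eif3c on the right in Rosa26.

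The subunits of eIF2 split. Eif2s1, the alpha subunit that GCN2 phosphorylates, stood at 278, 279.7 and 256 CPM in untreated Rosa26 libraries and at 195, 221 and 191 with the drug. The ranges did not overlap, and the gene fell by 0.42 ± 0.080 on the log2 scale (adjusted p = 1.97e-04). The gamma subunit is encoded on both sex chromosomes. The X-linked Eif2s3x went from 184, 182 and 183 CPM to 116, 133 and 119 (-0.58 ± 0.071, adjusted p = 1.15e-06). The Y-linked Eif2s3y went from 107, 112 and 107 to 114, 122 and 109.6 (0.09, adjusted p = 0.256), with ranges that overlap. Counts of Eif2s3x thus fell from 1.62 to 1.73 times those of Eif2s3y to 1.02 to 1.09 times, and the ranges of this within-library ratio did not overlap. Without the drug the ratio also varied, from 1.18 to 1.24 in the Atf4 knockout and from 1.34 to 1.64 in the Cebpg knockout. The labels give no sex, and whether libraries differ in their mix of male and female cells was not tested. The beta subunit Eif2s2, outside the rule, rose by 0.26 (adjusted p = 0.0213).

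All 5 genes of eIF2B fell (median -0.50). Eif2b5, the catalytic epsilon subunit, stood at 136, 137 and 132 CPM without and at 93.2, 104 and 84.4 CPM with halofuginone, with no overlap (-0.52 ± 0.072, adjusted p = 5.29e-06). Eif2b1, a regulatory subunit, fell further, from 65.4, 73.0 and 66.3 to 44.1, 51.2 and 40.03 CPM (-0.60 ± 0.090, adjusted p = 1.47e-05). The smallest change was that of Eif2b3, at -0.27 ± 0.083 (adjusted p = 0.0121), whose call was lost without treated replicate 1 (adjusted p = 0.0683) or 3 (adjusted p = 0.0604). The alternative carriers of initiator tRNA, Eif2a and Eif2d, fell by 0.39 and 0.41.

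Of the 11 eIF4 genes 9 fell and 2 rose. Eif4h, a stimulator of the eIF4A helicase, went from 530, 522 and 506 CPM to 299, 335 and 287 CPM (-0.76 ± 0.073, adjusted p = 5.08e-08), so that the highest treated library lay well under the lowest untreated one. Eif4e, the cap-binding protein, went from 169, 174 and 181 to 108, 131 and 112 CPM (-0.58 ± 0.067, adjusted p = 5.50e-07). Eif4g1, the scaffold that joins cap-binding protein, helicase and eIF3, went from 983, 1011 and 1016 to 661, 717 and 659 CPM (-0.56 ± 0.059, adjusted p = 1.59e-07). Neither gene overlapped between the groups. The 2 helicase paralogs moved apart. Eif4a1 went from 1634, 1644 and 1565 CPM to 1211, 1435 and 1204 (-0.33 ± 0.094, adjusted p = 0.00664), and Eif4a2 from 313, 309 and 303 to 395, 383 and 367 (0.31 ± 0.052, adjusted p = 5.46e-05). The ratio of their counts fell from 5.17 to 5.32 untreated to 3.06 to 3.75 treated, without overlap. Several small RNAs lie within the exons or introns of Eif4a2 and it overlaps Rfc4 on the other strand; the strand setting of the counting is not given in the sources used here, so its counts are uncertain to that extent. The same holds for other genes with exons on the opposite strand of a measured gene. The longest overlaps were 1058 bases for Eif3d (Gm17638), 541 for Eif3j1 (Spg11), 472 for Eef2kmt (Alg1), 428 for Eif1ad (Banf1) and 419 for Eif5b (Rev1). Eif2b4 (Snx17) had 204, and Eif2a, Eif2d and Eif6 had at most 138. Eif4e3 overlaps the measured gene Gm20696 by 156 bases on its own strand, and Eef1d, outside the rule, overlaps Naprt by 277. Their counts are uncertain under any strand setting. The other eIF4 gene that rose was Eif4e3, a cap-binding relative, from 45.8 ± 0.51 to 52.0 ± 3.10 CPM (SD, n = 3). Its log2 fold change was 0.18 (adjusted p = 0.0248). This call was lost without untreated replicate 2 (adjusted p = 0.051) or 3 (0.0625) and without treated replicate 1 (0.11) or 2 (0.0599), and with only the libraries compared (0.0671).

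Among the 14 genes of eIF3 6 fell, 1 rose and 7 did not pass, so the complex did not move as a unit. Eif3b and Eif3l fell most of its well-measured genes. Eif3b, a core scaffold subunit, stood at 571, 588 and 559 CPM without and at 339, 397 and 337 CPM with the drug (-0.68 ± 0.070, adjusted p = 1.28e-07). Eif3l went from 266, 284 and 273 to 157, 186 and 157 CPM (-0.72 ± 0.067, adjusted p = 2.83e-08). Eif3c, another core subunit, went the other way, from 519.8, 540.1 and 516 CPM to 676, 779.7 and 633 CPM, with every treated library higher (0.41 ± 0.078, adjusted p = 2.16e-04). Counts of Eif3l relative to Eif3c dropped from 0.512 to 0.529 to 0.232 to 0.248 in the same libraries. Eif3d, Eif3e, Eif3f, Eif3g, Eif3h, Eif3k and Eif3m were between -0.06 and 0.11 and did not pass. Eif3j2 had the lowest value of all, -1.10 ± 0.43 (adjusted p = 0.0406), on only 0.581 to 2.46 CPM. It is a near-identical copy of Eif3j1, with which it may share reads, and its call was lost without untreated replicate 1 (adjusted p = 0.164) or 2 (0.077) or treated replicate 1 (0.165) or 2 (0.0694).

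**Figure D2:**
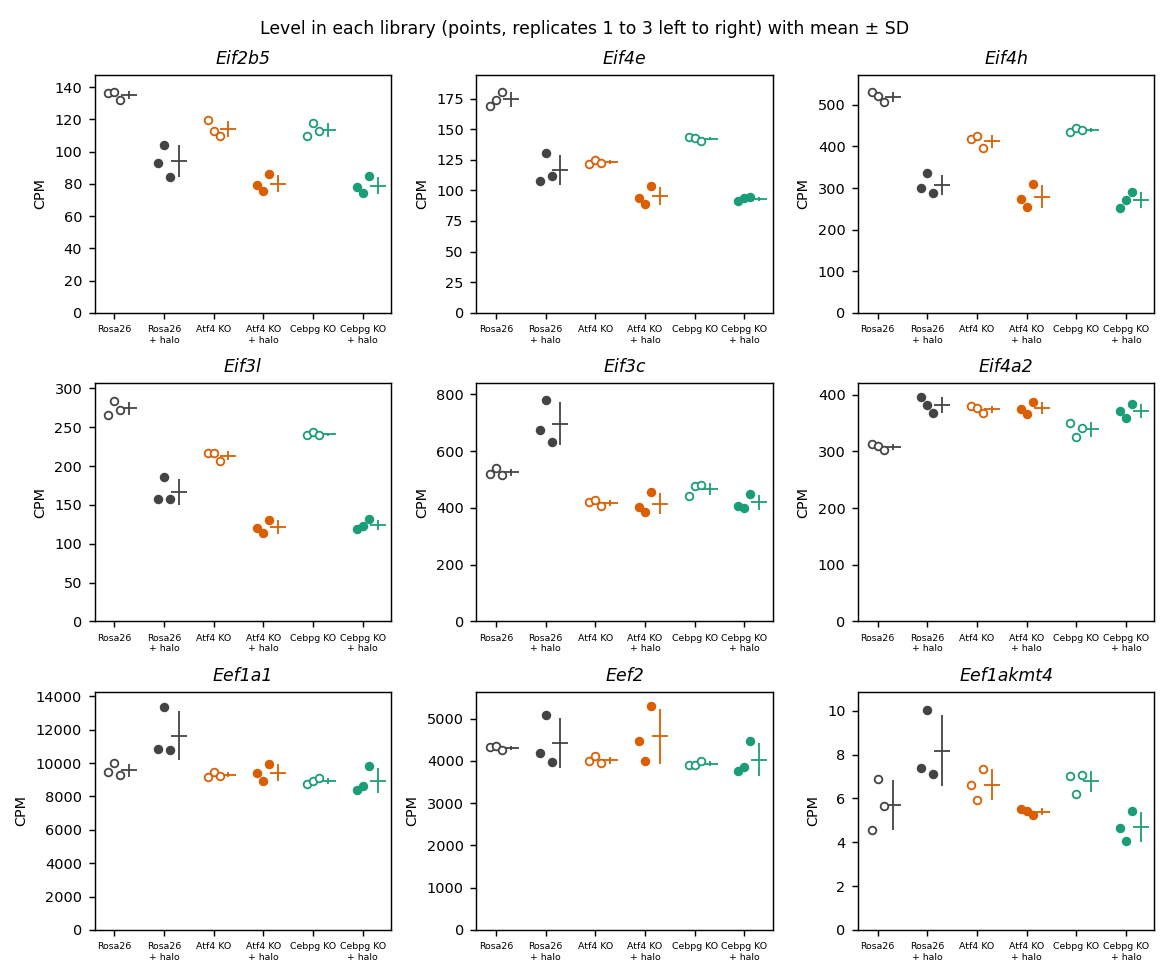
CPM (y axis, from 0) of 9 of the genes in each library by group ("halo" is halofuginone; points are replicates 1 to 3 from left to right, with mean ± SD beside them). Eif4h and Eif3l drop with the drug in each genotype, Eif3c is raised in treated Rosa26 libraries (633 to 779.7 CPM), and Eef2 overlaps between treated and untreated libraries of Rosa26.

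Of the genes for start codon choice and subunit joining 3 of 6 fell and 1 rose. Eif1 rose from 367, 382 and 357 CPM to 449, 559.6 and 428 CPM (0.38 ± 0.11, adjusted p = 0.0101), with every treated library above every untreated one. Its partner Eif1ax, a gene for eIF1A, fell by 0.49 ± 0.093 (adjusted p = 2.33e-04), as did the joining factor Eif5b by 0.44 (adjusted p = 5.90e-06). Eif5, which triggers GTP hydrolysis on eIF2, was at -0.06 (adjusted p = 0.392). Eif5a, at 2134, 2158 and 2055 CPM without and 1672, 2014 and 1560 CPM with the drug, had no overlap but did not pass (-0.27, adjusted p = 0.0718). Eif6, which keeps the large subunit from joining too early, went from 183, 194 and 174 to 133, 163 and 116 CPM (-0.42 ± 0.13, adjusted p = 0.0148). Its call was lost without untreated replicate 2 (adjusted p = 0.0581) or treated replicate 1 (0.0526) or 3 (0.080).

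No gene of the 5 elongation factors fell in Rosa26. Eef1a1 stood at 9468, 10010 and 9265 CPM without and at 10840, 13350 and 10760 CPM with halofuginone (0.28 ± 0.10, adjusted p = 0.0277). Eef1b2, a subunit of its exchange factor, went from 950.2, 1010 and 923 to 1197, 1569 and 1111 CPM (0.43 ± 0.14, adjusted p = 0.0163). The groups did not overlap for either gene, yet treated replicate 2, which stands apart, was the highest in both. Without it the values were 0.17 (adjusted p = 0.0705) for Eef1a1 and 0.26 (adjusted p = 0.0807) for Eef1b2. The call was also lost for Eef1a1 without untreated replicate 1 (adjusted p = 0.0784) or 3 (0.0935), and for Eef1b2 without untreated replicate 3 (0.0557). With only the libraries compared Eef1a1 had an adjusted p of 0.0502. Eef2 ranged from 4255 to 4347 CPM untreated and from 3971 to 5082 treated and overlapped (0.03, adjusted p = 0.821). Its inhibitory kinase Eef2k stood at 27.6, 25.8 and 26.6 CPM without and 29.9, 30.8 and 28.5 CPM with the drug (0.16, adjusted p = 0.171). Of the lysine methyltransferases of eEF1A, Eef1akmt1 fell by 0.60 ± 0.11 (adjusted p = 9.79e-05). Eef1akmt4 rose by 0.52 ± 0.17 (adjusted p = 0.0161), from 4.56, 6.88 and 5.67 to 7.41, 10.1 and 7.10 CPM. It shares sequence with the overlapping read-through gene Gm49333 and overlaps Alg3 on the other strand, so its counts are uncertain. Its call was lost without untreated replicate 1 (adjusted p = 0.0948) or treated replicate 2 (0.121), and without the 3 libraries that stand apart (0.0553). Outside the rule, Eef1d, a further exchange factor subunit, fell by 0.47 (adjusted p = 0.00101), Eif1a by 0.34 (adjusted p = 0.00925), and Eif4g3 rose by 0.22 (adjusted p = 0.00956).

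Although most of the genes fell, they took 3.08 ± 0.067% of all counts in untreated and 3.16 ± 0.15% in treated Rosa26 libraries (SD, n = 3). Eef1a1 and Eef2 make up much of this sum. Without the 10 most counted genes of the table, these 2 among them, the share was 1.89 ± 0.028% and 1.72 ± 0.078%.

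In both knockouts halofuginone lowered about as many of the genes, and few rose. In the Atf4 knockout 29 of 54 fell and 1 rose (26.5% and 23.1% of all genes, 49.6% in either direction), with a median of -0.27 against -0.04 over all genes. In the Cebpg knockout 31 fell and 2 rose (28% and 23.1% of all genes, 51% in either direction), with a median of -0.35 against -0.03. Every treated library lay below every untreated one for 28 genes in the Atf4 knockout (28.9% of all genes) and for 33 in the Cebpg knockout (32.7%). These comparisons use different libraries in each genotype. Of the 54 genes, 25 fell in all 3 genotypes, as did 18.8% of all genes. They were Eif2s1, Eif2s3x, the 5 genes of eIF2B, Eif2a and Eif2d. From eIF3 they were Eif3a, Eif3b, Eif3i and Eif3l, and from eIF4 Eif4a1, Eif4a3, Eif4b, Eif4e, Eif4enif1, Eif4g1 and Eif4h. Eif1ad, Eif1ax, Eif5b, Eif6 and Eef1akmt1 completed them. Of the falls in each genotype, 23 of 29, 22 of 29 and 28 of 31 were called without each library in turn. Eif3i was among those lost, in Rosa26 with adjusted p up to 0.202 (without treated replicate 1) and in the Atf4 knockout up to 0.16 (without treated replicate 2).

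The largest falls in both knockouts were those of Eif3b and Eif3l. Eif3l went from 217, 217 and 207 to 119.6, 113 and 131 CPM in the Atf4 knockout (-0.82 ± 0.068, adjusted p = 4.34e-09) and from 240.2, 244 and 239.8 to 119, 122 and 132 CPM in the Cebpg knockout (-0.96 ± 0.068, adjusted p = 3.83e-10). Eif3b fell by 0.83 ± 0.071 (adjusted p = 6.79e-09) and 0.87 ± 0.071 (adjusted p = 3.22e-09). Next in the Atf4 knockout were Eif2s3x (-0.63), Eef1akmt1 (-0.60), Eif2d (-0.60) and Eif6 (-0.59), and in the Cebpg knockout Eif2b1 (-0.71), Eif4h (-0.69), Eif2s3x (-0.66) and Eif4g1 (-0.64). Eif2b5 fell by 0.51 and 0.52, and Eif4e by 0.37 and 0.61. Eif2s3y was at -0.02 (adjusted p = 0.785) and 0.14 (adjusted p = 0.0714), and the ratio of Eif2s3x to Eif2s3y counts fell to 0.757 to 0.806 and to 0.784 to 0.927, below the untreated libraries of each genotype. Eef1g, the gamma subunit of the eEF1 exchange factor, fell by 0.50 ± 0.090 (adjusted p = 9.67e-05) and 0.48 ± 0.090 (adjusted p = 1.45e-04), where Rosa26 gave -0.14 (adjusted p = 0.199). The difference between genotypes did not pass, with interaction values of -0.36 (adjusted p = 0.105) and -0.34 (adjusted p = 0.211). Eif5a fell by 0.38 (adjusted p = 0.0142) and 0.34 (adjusted p = 0.0236). In the Atf4 knockout this call was lost without untreated replicate 1 (adjusted p = 0.0561) or treated replicate 1 (0.0701) or 2 (0.0827). In the Cebpg knockout it was lost without untreated replicate 1 (adjusted p = 0.0726) or 3 (0.0552) or treated replicate 1 (0.115). Eif1 rose in both, by 0.36 ± 0.11 (adjusted p = 0.0133) and 0.36 ± 0.11 (adjusted p = 0.0117). Its calls were lost without untreated Atf4 knockout replicate 3 (adjusted p = 0.053) and without treated Cebpg knockout replicate 3 (0.0756), the latter a library that stands apart.

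**Figure D3:**
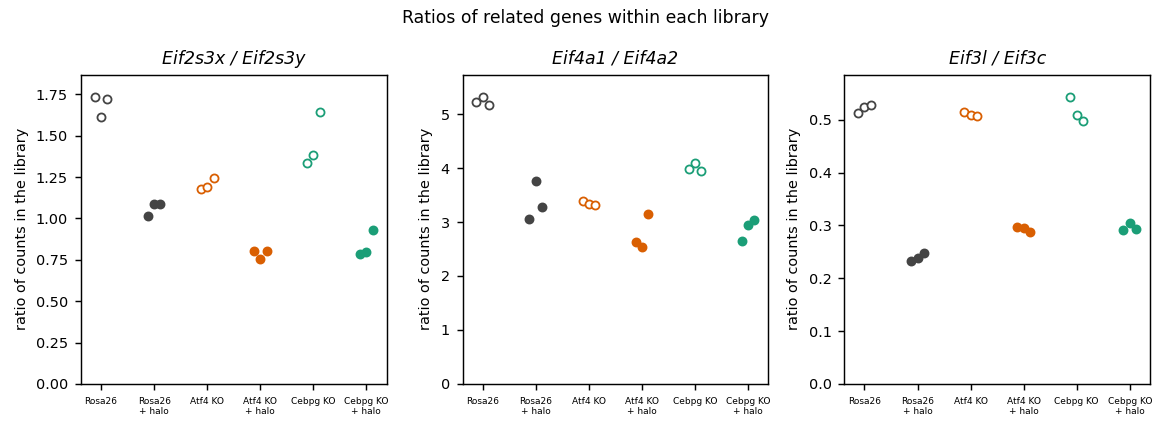
Ratio of counts of 3 gene pairs (y axis, from 0) in each library by group ("halo" is halofuginone; points are replicates 1 to 3). Each ratio is lower with the drug in every genotype, with Eif3l to Eif3c from 0.498 to 0.543 in all untreated and from 0.232 to 0.305 in all treated libraries.

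The response differed between genotypes for 3 genes. The interaction compares the drug response in a knockout with that in Rosa26, and 2 of the 54 genes passed with the Atf4 knockout, both lower (6.42% of all genes, 4.01% lower and 2.41% higher). With the Cebpg knockout 2 passed, again both lower (2.47% of all genes, 2.1% lower and 0.374% higher). The directions with the Atf4 knockout hung on the scaling. DESeq2's size factors in edgeR gave 3 of the 54 genes higher and 2 lower, and DESeq2 itself gave 4 and 4. Of the calls over all genes, 59% and 59.4% were higher in these runs. Eif3c, which rose in Rosa26, stood at 419.7, 427 and 407 CPM without and at 402, 385 and 456 CPM with the drug in the Atf4 knockout (-0.01, adjusted p = 0.910). In the Cebpg knockout it stood at 443, 478 and 482 CPM without and 406, 401 and 449.5 CPM with it (-0.16, adjusted p = 0.0976), and treated and untreated libraries overlapped in both. The interaction was -0.565 ± 0.11 (adjusted p = 0.00684) for the Cebpg knockout, with an adjusted p of at most 0.027 in every alternative, and -0.42 ± 0.11 (adjusted p = 0.0258) for the Atf4 knockout. The latter was lost without untreated Rosa26 replicate 1 (adjusted p = 0.064) or 3 (0.066), untreated Atf4 knockout replicate 1 (0.0579) or 2 (0.0679), or treated Atf4 knockout replicate 1 (0.0658) or 2 (0.0509). It was also lost in the fit of only the libraries compared (adjusted p = 0.0563).

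Eif4a2 stood at 379, 376 and 368 CPM without and at 376, 366 and 388 CPM with the drug in the Atf4 knockout (0.01, adjusted p = 0.924), already near its level in treated Rosa26 cells. Its interaction was -0.30 ± 0.073 (adjusted p = 0.0165) and had an adjusted p of 0.0506 without treated Rosa26 replicate 1. In the Cebpg knockout Eif4a2 rose by 0.13 ± 0.052 (adjusted p = 0.0387). That call was lost without untreated replicate 2 (adjusted p = 0.164) or 3 (0.0696) or treated replicate 1 (0.0791) or 3 (0.11). Its interaction with the Cebpg knockout was -0.18 (adjusted p = 0.272). Eef1akmt4 fell in the Cebpg knockout, from 7.02, 6.22 and 7.09 to 4.65, 4.05 and 5.42 CPM (-0.53 ± 0.18, adjusted p = 0.0169; 0.0879 without treated replicate 2 and 0.0507 without untreated replicate 3), where it had risen in Rosa26. The interaction was -1.045 ± 0.24 (adjusted p = 0.0253), on levels of 4.05 to 10.1 CPM. It was lost without untreated Rosa26 replicate 1 (adjusted p = 0.0776) or 3 (0.0609) or treated Rosa26 replicate 2 (0.0691). The same held without untreated Cebpg knockout replicate 1 (adjusted p = 0.0603) or 3 (0.0682) or treated Cebpg knockout replicate 1 (0.055) or 2 (0.0838). For the Atf4 knockout the interaction of Eef1akmt4 was -0.81 (adjusted p = 0.0514).

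Without halofuginone, Atf4 knockout cells already had less of many of these mRNAs than Rosa26 cells. Lower levels were called for 27 of 54 genes and higher for 2 (14.3% and 11.7% of all genes, 26% in either direction), with a median of -0.26 against 0.02 over all genes. For 41 of the 54, every knockout library lay below every Rosa26 library, against 25.6% of all genes. All 11 eIF4 genes passed, 10 lower and Eif4a2 higher. Eif4e had the largest change among the genes called, from 169, 174 and 181 CPM in Rosa26 to 122, 125 and 123 CPM in the knockout (-0.50 ± 0.067, adjusted p = 2.04e-05), and the spread within each group was small beside the gap. It was followed by Eif1ax (-0.48), Eif4a3 (-0.48), an eIF4A relative of the exon junction complex, Eif2b1 (-0.46), Eif3i (-0.40) and Eif3g (-0.38). Eif4g1 was lower by 0.29 (adjusted p = 0.00145) and Eif4a1 by 0.37 (adjusted p = 0.00716). Eif2b5 (-0.24, adjusted p = 0.0173) was lost without untreated Rosa26 replicate 1 (adjusted p = 0.053) or 2 (0.0603) or knockout replicate 2 (0.0573) or 3 (0.0775), and Eif2s1 (-0.28, adjusted p = 0.0125) without Rosa26 replicate 2 (0.0563). Eif4a2 was higher by 0.28 ± 0.052 (adjusted p = 5.39e-04), with 368 to 379 CPM against 303 to 313. Eif2s3y was higher by 0.21 (adjusted p = 0.0162), which was lost without Rosa26 replicate 1 (adjusted p = 0.0599) or 3 (0.057) or knockout replicate 1 (0.0588) or 2 (0.051). No elongation factor passed; Eef1a1 was at -0.04 (adjusted p = 0.786) and Eef2 at -0.10 (adjusted p = 0.507).

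In untreated Cebpg knockout cells the same direction was seen with fewer calls. Lower levels were called for 5 of 54 genes and higher for 0 (2.29% and 2.71% of all genes, 5% in either direction), namely Eif3i (-0.35), Eif4a3 (-0.32), Eif4e (-0.29), Eif4g2 (-0.29), a relative of the scaffold used in cap-independent initiation, and Eif2b5 (-0.25). Eif4e went from 169, 174 and 181 CPM to 144, 143 and 141 CPM (adjusted p = 0.0163), with no overlap. The median over the 54 genes was -0.18 against 0.01 over all genes, 52 of the 54 values were below 0 (48.5% of all genes), and in 43 every knockout library lay below every Rosa26 library, against 20.6% of all genes. The reverse held for 1 gene (19.3% of all genes). None of the 5 calls held without each library in turn. The count was 0 without any of untreated Rosa26 replicates 2 or 3 or untreated Cebpg knockout replicates 1, 2 or 3, 1 without untreated Rosa26 replicate 1, and 3 without untreated Atf4 knockout replicates 1 or 2 or treated Atf4 knockout replicate 1. It was 8 without treated Atf4 knockout replicate 2, 21 without treated Cebpg knockout replicate 2, 28 without treated Rosa26 replicate 2 and 30 without treated Atf4 knockout replicate 3. Without treated Rosa26 replicate 2 or treated Atf4 knockout replicate 3 the median of the 54 genes moved from -0.18 to -0.21 and that of all genes from 0.01 to -0.025, and without treated Cebpg knockout replicate 2 to -0.21 and -0.024. Why the counts moved was not tested. Scaling moved this count too, to 21 with DESeq2's size factors in edgeR and 27 with DESeq2 itself. The share of higher calls among all genes called went from 54.1% to 26.2% and 24.8%.

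**Figure D4:**
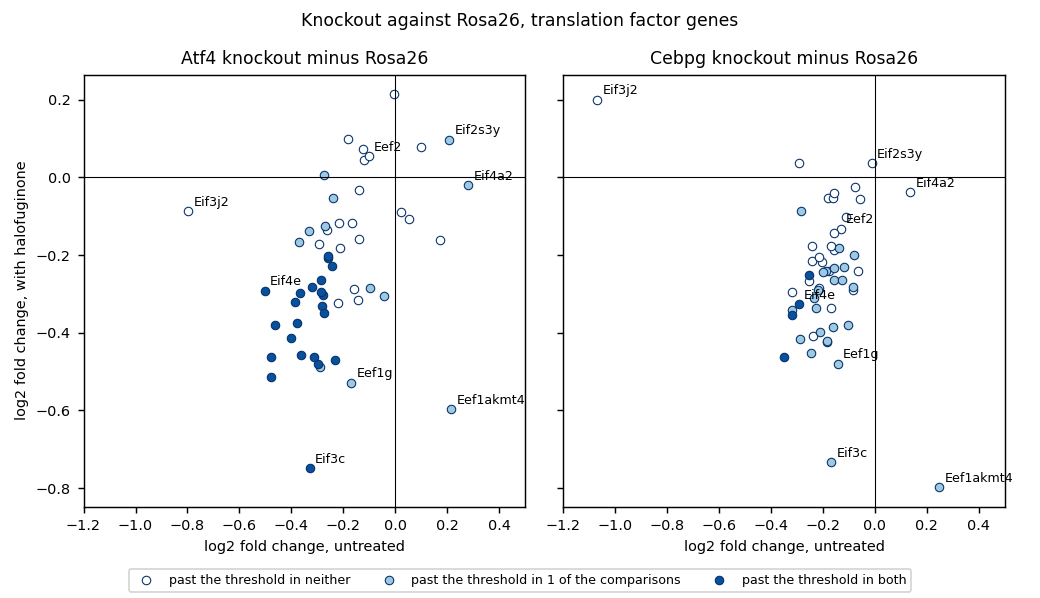
Log2 fold change of each of the 54 genes in the Atf4 (left) and Cebpg (right) knockout against Rosa26, without (x axis) and with halofuginone (y axis). Shading gives the number of the 2 comparisons with an adjusted p under 0.05; most points lie below 0 on both axes, with Eif3c and Eef1akmt4 lowest under the drug.

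Measured with halofuginone in all groups, both knockouts again lay below Rosa26. In the Atf4 knockout 27 of 54 genes were called lower and 0 higher (16.3% and 11.8% of all genes, 28.1% in either direction), with a median of -0.25, and in 21 every knockout library lay below every Rosa26 library (18.3% of all genes), with the reverse in 0 (15.6%). In the Cebpg knockout 27 were called lower and 0 higher (13.1% and 5.74%, 18.9% in either direction), with a median of -0.25, and in 28 every knockout library lay below (20% of all genes). The comparisons share their Rosa26 libraries, as do the drug comparison in Rosa26 and the untreated ones, so that their calls are not independent. Unadjusted p under 0.05 was reached by 30 and 36 genes (37.7% and 31.5% of all genes). With only the libraries compared in the fit, 13 and 12 of the 54 were called. With upper-quartile scaling the share of higher calls among all genes called rose from 41.9% to 52.2% and from 30.4% to 50.7%, and 29 and 21 of the 54 were called lower and 2 and 0 higher.

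Eif3c and Eef1akmt4 showed the largest differences in both. Eif3c stood at 676, 779.7 and 633 CPM in Rosa26, at 402, 385 and 456 CPM in the Atf4 knockout (-0.75 ± 0.078, adjusted p = 5.75e-07) and at 406, 401 and 449.5 CPM in the Cebpg knockout (-0.73 ± 0.078, adjusted p = 2.24e-06). No knockout library reached the lowest Rosa26 library. Eef1akmt4 was lower by 0.60 (adjusted p = 0.0121; 0.0785 without treated Rosa26 replicate 2 0.117 without the 3 libraries that stand apart and 0.0574 with only the libraries compared) and 0.80 (adjusted p = 0.00273). Eef1g stood at 1046, 1282 and 1014 CPM in Rosa26, at 772, 713 and 830.3 CPM in the Atf4 knockout (-0.53 ± 0.090, adjusted p = 1.51e-04) and at 775, 738 and 883 CPM in the Cebpg knockout (-0.48 ± 0.090, adjusted p = 8.01e-04), again without overlap. Eef1a1 was lower as well, by 0.31 ± 0.10 (adjusted p = 0.0296) and 0.38 ± 0.10 (adjusted p = 0.0121). Those calls were lost without treated Atf4 knockout replicate 1 (adjusted p = 0.0808) or 2 (0.0986) and without treated Cebpg knockout replicate 1 (0.0688). With only the libraries compared both Eef1a1 calls were lost (adjusted p = 0.286 and 0.143). The other genes among the largest differences were Eif1ax (-0.51), Eef2kmt (-0.49), a methyltransferase of eEF2, and Eif1ad (-0.48) in the Atf4 knockout, and Eif3i (-0.46), Eif1ad (-0.45) and Eif3k (-0.42) in the Cebpg knockout. For Eef2kmt the call was lost without treated Rosa26 replicate 2 (adjusted p = 0.0515) or knockout replicate 1 (0.0557) or 2 (0.0847) or with only the libraries compared (0.134), and for Eif3k without knockout replicate 1 (0.0606). The smallest called differences in the Atf4 knockout were those of Eif3a, the largest eIF3 subunit (-0.20), Eif2a (-0.21), Eif2b5 (-0.23), Eif2s1 (-0.26), the helicase cofactor Eif4b (-0.28) and Eif2d (-0.285). With only the libraries compared none of these 6 was called (adjusted p = 0.0664 for Eif2d to 0.188 for Eif4b). Eif3a and Eif2d were called without each library in turn, and the other 4 were lost without treated knockout replicate 1 or 2, with adjusted p up to 0.118 for Eif4b without replicate 2. Eif2a and Eif2b5 were also lost without treated Rosa26 replicate 2 (adjusted p = 0.0696 and 0.0662). In the Cebpg knockout the smallest were Eif3a (-0.18), Eif4e3 (-0.20), Eif2d (-0.23), Eif4g1 (-0.23), Eif2a (-0.24) and Eif2s1 (-0.24). With only the libraries compared none of these 6 was called (adjusted p = 0.105 for Eif4g1 to 0.215 for Eif3a). Eif4g1 was called without each library in turn. The other 5 were lost without treated Rosa26 replicate 2 or treated knockout replicate 1 or 2, with adjusted p up to 0.19 for Eif2s1 without knockout replicate 1, and Eif3a, Eif4e3 and Eif2d also without treated Rosa26 replicate 1 (adjusted p = 0.0712, 0.128 and 0.112). For Eif2s1 the call was also lost without any of 6 untreated libraries, with adjusted p of 0.0502 to 0.0514. Of the genes lower in the Cebpg knockout, 14 of 27 were called without each library in turn, and of those in the Atf4 knockout 17 of 27.

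Between the knockouts, with halofuginone, no gene of the 54 passed in edgeR (1% of all genes did, 0.538% higher and 0.463% lower), 1 had an unadjusted p under 0.05 (12.4% of all genes), and DESeq2 and limma-voom called 0. In 0 genes were the libraries of the knockouts without overlap in either direction (8.25% of all genes lower and 5.77% higher). The median was -0.02, and the values ran from -0.27 to 0.29. Across all 10 comparisons, 10 of the genes passed in none (32.2% of all genes), namely Eef2, Eef2k, Eef1e1, Eef1akmt2, Eif1b, Eif5 and the eIF3 genes Eif3d, Eif3e, Eif3h and Eif3m.

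The level of the 54 genes moved from library to library with the share of counts in TEC genes. Untreated Rosa26 libraries held 0.09997% to 0.133% of TEC counts and untreated libraries of both knockouts 0.194% to 0.2498%, where the 54 genes lay lower. Among treated libraries, those that stand apart held 0.0542% (Rosa26 replicate 2), 0.0735% (Atf4 knockout replicate 3) and 0.151% (Cebpg knockout replicate 3). In them the median of the 54 genes lay 0.17, 0.15 and 0.11 above the mean of their own group on the log2 scale. Malat1 stood at 672, 1158 and 1960 CPM in these and at 2074 to 3580 CPM in the other treated libraries. The median coefficient of variation of the 54 genes was 3.38% to 3.91% in the untreated groups and 8.35% to 10.8% in the treated ones. With the TEC share as a term in the fit, added after the data were seen, the median in the untreated Atf4 knockout moved from -0.26 to -0.13 and in the untreated Cebpg knockout from -0.18 to -0.06, while the drug response in Rosa26 moved from -0.28 to -0.26. With the term 25 genes were called lower and 6 higher in the untreated Atf4 knockout (27 and 2 without it), and 7 lower and 2 higher in the Cebpg knockout (5 and 0 without it). Without the 3 libraries, 37 genes fell and 6 rose with the drug in Rosa26, 33 and 1 in the Atf4 knockout, and 37 and 6 in the Cebpg knockout. Over all genes 52.3%, 47.3% and 48.3% of these calls were higher. Against Rosa26, 38 genes were lower and 4 higher in the untreated Atf4 knockout, and 35 and 1 in the untreated Cebpg knockout (50.3% and 46.7% of all calls higher). With the drug 33 and 36 were lower in the Atf4 and Cebpg knockouts and 0 higher (41.7% and 32.8% of all calls higher). Genotype and TEC share in untreated libraries cannot be told apart, since all 3 Rosa26 libraries lie below all 6 knockout libraries.

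**Figure D5:**
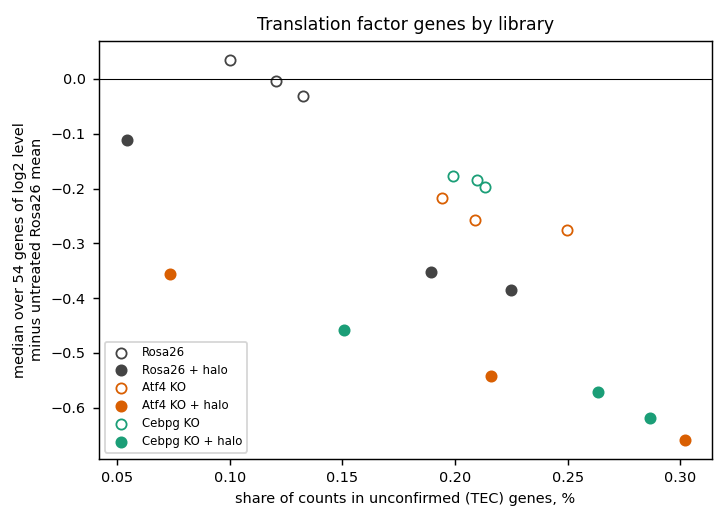
Median over the 54 genes of the log2 level minus the untreated Rosa26 mean (y axis) against the share of counts in TEC genes (x axis, percent) for the 18 libraries ("halo" is halofuginone). Within each treated group the library with the lowest TEC share lies highest, and every treated library lies below every untreated Rosa26 library. No treated library has a TEC share within the range of untreated Rosa26 (0.09997% to 0.133%), so these are not compared at equal share.

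Among the genes around these factors some rose and some fell with the drug in Rosa26, as among all genes. Over all genes 23.6% rose, 24.1% fell and 47.7% passed in either direction, and each list below is to be read against these shares. Of 21 regulators of initiation and elongation 8 rose and 6 fell. Pdcd4, an inhibitor of eIF4A, rose from 98.3 to 345 CPM (1.81 ± 0.074, adjusted p = 2.05e-13), and Eif2ak3, the kinase PERK of the endoplasmic reticulum, from 41.8 to 93.1 CPM (1.15 ± 0.061, adjusted p = 6.67e-12). Of the 9 enzymes that modify eIF5A and eEF2, 2 rose and 3 fell, led by Dhps, the first enzyme of hypusine formation on eIF5A (-0.69 ± 0.082, adjusted p = 8.89e-07), and Dph2 of diphthamide formation on eEF2 (-0.47, adjusted p = 2.26e-04). Of the 6 measured genes of termination, recycling and rescue 2 rose and 3 fell. Gtpbp2, which helps to rescue stalled ribosomes, rose from 104.9 to 235 CPM (1.16 ± 0.051, adjusted p = 4.71e-13), and Gspt1, the release factor eRF3, fell by 0.61 ± 0.057 (adjusted p = 2.65e-08). The rise of Gtpbp2 was smaller in both knockouts, by the interaction (-0.64, adjusted p = 2.11e-05, and -0.78, adjusted p = 3.42e-06). Among 3 genes of reinitiation Denr (-0.36) and Mcts1 (-0.48) fell and 1 rose, and for selenocysteine Eefsec, its elongation factor, fell by 0.45 and Secisbp2 rose by 0.22. Of the 10 mitochondrial translation factors 2 rose and 3 fell, led by Gfm1 (-0.75 ± 0.060, adjusted p = 3.40e-09) and Tufm (-0.96 ± 0.12, adjusted p = 3.07e-06), the mitochondrial counterparts of eEF2 and eEF1A.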

How the data were processed

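Poly-A RNA was sequenced in 18 libraries, 3 in each of 6 groups taken from the labels. Per the file headers, the deposited values are raw counts of reads for each gene, in whole numbers. Directional libraries were made with dUTP, per the labels' protocols. FastQC, MultiQC, Trimmomatic, STAR, HTSeq, edgeR and the build GRCm39 are named in the submitters' processing notes; the sources used here do not state versions, settings, annotation or the strand of counting. All 54 genes were tested; the lowest count of any was 7 (Eif3j2). A total of 449 names were blank and 431 were filled from a GRCm38 annotation by identifier. That annotation gave exon lengths for 54 of 54 genes; its build differs from GRCm39, so it was used for names, lengths and overlaps.

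All 18 libraries entered 1 fit in edgeR 4.0.16 (R 4.3.3) with 6 group means, TMM scaling and robust quasi-likelihood F tests. P-values were Benjamini-Hochberg adjusted over 14695 genes for each of 10 comparisons, at a threshold of 0.05. Depth limits low genes such as Eif3j2 and Eef1akmt4 most. The alternatives were other scalings, DESeq2 1.42.0, limma-voom (limma 3.58.1), a filter of 10 CPM in 3 libraries, a replicate block, fits of only the libraries compared, and leaving out libraries. Members, gene lists and tests were chosen with earlier results of these data known. Genes named were a panel (Eif2s1, Eif2b5, Eif4e, Eif4g1, Eif4a1, Eif4a2, Eif5a, Eif6, Eef1a1, Eef2, Eef2k), up to the 6 highest and 6 lowest called values per comparison, the highest and lowest level per length of each role, genes with a called interaction, and the 2 smallest p of each pathway list. Other genes are named to complete a complex or set.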

Additional observations from a re-analysis of the deposited data

Results flagged for a closer look

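The response to halofuginone differed from that in Rosa26, by the interaction in edgeR, for 3 of the 54 genes. Eif3c had interaction values of -0.419 with the Atf4 knockout (adjusted p = 0.0258) and -0.565 with the Cebpg knockout (adjusted p = 0.00684), rising in 3 of 3 treated Rosa26 libraries above all untreated ones while the knockouts overlapped. Eif4a2 had -0.301 with the Atf4 knockout (adjusted p = 0.0165), where it was already higher without the drug. Eef1akmt4 had -1.045 with the Cebpg knockout (adjusted p = 0.0253), on few counts and with an overlapping read-through gene. Over all genes 6.42% and 2.47% passed these interactions, and 3.7% of the 54 genes passed each.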

How the results depend on the processing

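Of 191 calls of the 54 genes over all comparisons, 0 changed direction under any alternative run. RLE scaling kept 189, upper-quartile scaling 180, DESeq2 189, limma-voom 191, the fits of only the libraries compared 154, exclusion of the 3 libraries that stand apart 189, and the TEC term 186. The filter of 10 CPM in 3 libraries tested 52 of the 54 genes and kept 181 of 185. The causes of the changes below were not tested.

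In the untreated Cebpg knockout the 5 calls became 21 with RLE scaling, 9 with upper-quartile scaling, 27 with DESeq2, 13 with the filter, 41 with only the libraries compared, 36 without the 3 libraries and 9 with the TEC term. With only the libraries compared the 27 calls under halofuginone became 13 in the Atf4 and 12 in the Cebpg knockout. Between the knockouts 0 became 3 with the TEC term. For the Atf4 interaction 2 became 5 with RLE scaling, 5 with upper-quartile scaling, 8 with DESeq2, 5 with the filter, 1 with only the libraries compared, 6 without the 3 libraries and 17 with the TEC term. Of these, 3 were higher with RLE scaling, 1 with upper-quartile scaling, 4 with DESeq2, 2 with the filter, 2 without the 3 libraries and 2 with the TEC term. For the Cebpg interaction 2 became 1 with the filter, 5 without the 3 libraries (1 higher) and 11 with the TEC term (1 higher). The largest shift of the median of all genes was from -0.03 to 0.08 with upper-quartile scaling, for the drug in the Cebpg knockout. RLE scaling and DESeq2 moved the share of higher calls over all genes from 37.5% to 59% and 59.4% in the Atf4 interaction and from 15.2% to 40.7% and 45.5% in the Cebpg interaction (33.1% with upper-quartile scaling), DESeq2 moved it from 53.7% to 41.9% between the knockouts, and upper-quartile scaling from 44.9% to 57.6% in the untreated Atf4 knockout.

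Leaving out each library gave 30 to 41 calls for the drug in Rosa26, 23 to 33 in the Atf4 and 29 to 41 in the Cebpg knockout, 24 to 39 and 0 to 30 for the untreated Atf4 and Cebpg knockouts, 18 to 37 and 14 to 35 for them with the drug, 0 between them, and 1 to 5 and 1 to 2 for the interactions. The count of 27 in the Cebpg knockout with the drug became 16 without treated Rosa26 replicate 2, 14 without treated Cebpg knockout replicate 1 and 17 without its replicate 2. The Atf4 interaction rose to 5 without treated Rosa26 replicate 2 (3 higher and 2 lower) or treated Atf4 knockout replicate 3 (2 higher and 3 lower).

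Whether replicate numbers pair the samples was not settled. Deviations of same-numbered libraries correlated from -0.784 to 0.661, over 0.1 in 9 of 24 same-numbered pairs. In 9 of the 24 the correlation was the best with the own number, where each library had 3 numbers to match. Same-numbered untreated and treated libraries gave 0.012, 0.323 and 0.323 in Rosa26. They gave -0.279, -0.068 and -0.455 in the Atf4 knockout and -0.267, -0.051 and -0.012 in the Cebpg knockout. Deviations within a group cancel out, and the libraries that stand apart weigh on them, so these correlations can neither show nor exclude pairing. With the replicate block 178 of 191 calls were kept, and the untreated Cebpg knockout had 2 calls in place of 5. Depth limits Eif3j2 and Eef1akmt4, the 2 genes that the filter removed.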

Other observations

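Eif4ebp1, the binding protein that holds eIF4E away from the cap complex and a relative left out by the naming rule, rose with halofuginone in Rosa26 (from 38.7 to 61.1 CPM, 0.66 ± 0.092, adjusted p = 6.75e-06 in edgeR). In the Atf4 knockout it was at -0.12 (adjusted p = 0.336) and in the Cebpg knockout at 0.00 (adjusted p = 0.991), with interactions of -0.78 (adjusted p = 0.00144) and -0.66 (adjusted p = 0.0102). In untreated cells it was lower in the Atf4 knockout (-0.50, adjusted p = 7.60e-04) and in the Cebpg knockout (-0.39, adjusted p = 0.0246) than in Rosa26. Its target Eif4e fell with the drug in all 3 genotypes. Ppp1r15a, the stress-induced regulatory subunit of the eIF2 phosphatase, rose to 22.5 CPM in treated Rosa26 cells (1.11 ± 0.16, adjusted p = 8.12e-06), and Ppp1r15b, the constitutive one, by 0.18 (adjusted p = 0.032). Eif4ebp1, Ppp1r15a and Ppp1r15b were chosen after their values were seen.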
